A study of Homo sapiens with 6 samples.

Results

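The genes described here are 10 inflammatory cytokines and chemokines (IL1A, IL1B, IL1RN, IL6, IL8, CXCL1, CXCL2, CXCL3, CCL20, and CSF2) in oral squamous cell carcinoma (OSCC) cells depleted of the long noncoding RNA DLEU1. They were found by gene name: all probes carrying 1 of these names in the scanner files were taken, which gave 15 of the 50599 probes and 10 of the 36337 gene names on the array. HSC-3, KON, and Ca9-22 are established OSCC cell lines, and each was transiently transfected either with siDLEU1-2, 1 of the study's small interfering RNAs targeting DLEU1, or with a universal negative control siRNA (siCtrl). No untransfected cells enter the comparison, so both groups carry the effects of transfection itself. RNA was taken 72 h after transfection, and 100 ng was labeled with Cy3 for a one-color Agilent array. Each line gave 1 array per siRNA, so the 3 lines are the only replicates, the 2 arrays of a line differ, as labeled, in the siRNA, and nothing measures the error of a change within 1 line. A single siRNA sequence stands for DLEU1 knockdown on these arrays, so an effect of DLEU1 loss and an effect of that sequence cannot be told apart.

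IL-1α and IL-1β are alarm cytokines that signal through the same IL-1 receptor, and the IL1RN product is the antagonist that occupies this receptor without signaling. IL-1 signaling acts through NF-κB and AP-1 to switch on a second tier of genes, among them IL6, the neutrophil-attracting CXC chemokines (IL8, CXCL1, CXCL2, and CXCL3), CCL20, which attracts CCR6-bearing lymphocytes and dendritic cells, and CSF2, which encodes the myeloid growth factor GM-CSF. Keratinocytes and squamous carcinoma cells are known to make many of these factors themselves. IL-1β and IL-18 are made as inactive precursors, which caspase-1 cleaves within inflammasomes before release through gasdermin D pores.

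The siRNA strands that define the comparison are shown first, with bases 2 to 8 of the antisense strand, the stretch that pairs with targets as a microRNA seed does, in capitals.
siDLEU1-2 sense: cagggguuaucgcacuuaagc
siDLEU1-2 antisense: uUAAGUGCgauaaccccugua
The DNA complement of this seed, GCACTTA, was in 0 of the 15 probe sequences of the cytokine genes and in 57 of the 19956 probes tested, which says nothing of the transcripts outside the probes.

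Promoters of all 10 genes were found in the RefSeq promoter table (GRCh38.p14, 250 bases before to 50 after each start; IL8 is listed there as CXCL8). A κB-like stretch, GGNNNTTCC on either strand, occurred for 8 of the 10 genes, against 23.5% of all 27305 genes in the table, and the exceptions were IL1A and IL1B. An AP-1-like stretch, TGANTCA, occurred for IL1A, IL1RN, and IL8, against 9.37% of all genes. The letters were chosen after the promoters had been seen, and a match is a description of the sequence and not of binding. The κB-like match farthest from the start per gene is shown for IL6, the chemokines, and CSF2, the second-tier genes of the list, with the matched letters in capitals and sequences in the direction of the gene. The AP-1-like matches are not shown.
IL6 (chr7:22727117-22727146, plus strand): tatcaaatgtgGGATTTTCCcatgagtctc
CXCL8 (chr4:73740467-73740496, plus strand): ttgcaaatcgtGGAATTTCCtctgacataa
CXCL1 (chr4:73869304-73869333, plus strand): ctggaactccgGGAATTTCCctggcccggg
CXCL2 (chr4:74099254-74099283, minus strand): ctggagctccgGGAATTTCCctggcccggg
CXCL3 (chr4:74038749-74038778, minus strand): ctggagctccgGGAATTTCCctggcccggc
CCL20 (chr2:227813752-227813781, plus strand): ttgatcaatggGGAAAACCCcatgtggcaa
CSF2 (chr5:132073676-132073705, plus strand): gataagggccaGGAGATTCCacagttcagg
The match shown began 72 bases before the start in IL6, 91 in CXCL8, 78 in CXCL1, 77 in CXCL2, 78 in CXCL3, 79 in CCL20, where it is on the opposite strand, and 102 in CSF2. A further κB-like match, not shown, began 53 bases before the start in each of CXCL1, CXCL2, and CXCL3 and 85 bases before it in CSF2. The CXCL1 and CXCL2 stretches shown were identical at 29 of 30 positions and those of CXCL1 and CXCL3 at 28 of 30. The 60-base array probes of these 3 chemokines shared no run longer than 8 bases, so their probes read different sequences despite the similarity of the genes.

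DLEU1 itself fell in all 3 lines. Its probe read 571 after siCtrl and 30.7 after siDLEU1-2 for HSC-3, 1145 and 87.8 for KON, and 741 and 66.0 for Ca9-22, in units of processed signal, the brightness of a spot after background subtraction. The log2 fold changes (siDLEU1-2 over siCtrl, each array centered on its 75th percentile) were -4.10, -3.63, and -3.44, with a mean of -3.72 ± 0.34 (SD, n = 3 lines; limma adjusted p = 0.0227). The share of probes well above background ran from 43.0% to 45.7% over the arrays. Epithelial markers were detected throughout, with 9 to 10 of 10 listed genes well above background on each array. Their summed signals were 89258 to 289845 after siCtrl and 128336 to 323383 after siDLEU1-2. These sums include EPCAM and the bright KRT18, both higher after siDLEU1-2 in each line, and so do not measure squamous genes alone. KRT18 (A_32_P151544) read 53354 and 145418 for HSC-3, 45705 and 118784 for KON, and 20517 and 45422 for Ca9-22. Of the 10 listed epithelial genes, limma called 3 lower after siDLEU1-2 (KRT6A, TP63, and DSG3, with means of -1.33, -2.46, and -2.12 on the log2 scale) and 2 higher (KRT18, with 1.83 and 1.40 by its probes, and CDH1 with 2.92), where 5.11% and 4.58% of all gene names had such a probe, and the part of this shift in the cytokine values was not tested. The TP63 value takes as read 1 array that was not well above background, and in Ca9-22 the gene was at least 6.39-fold lower. Of the 9 leukocyte markers on the array, 2 to 4 were detected, CD163 and FCGR3A were detected on no array, and the summed signal of the list ranged from 1237 to 11722 after siCtrl and from 1217 to 14093 after siDLEU1-2. Of 6 fibroblast markers, 1 to 2 were detected, and COL1A2, COL3A1, PDGFRB, and LUM were detected on no array. Their summed signal was nevertheless higher in every siDLEU1-2 array (426 to 592) than in every siCtrl array (167 to 233), with COL1A1 the main contributor. COL1A1, the only gene of this list that could be tested, was called higher (mean log2 fold change 1.45 ± 0.57, SD, n = 3 lines; limma adjusted p = 0.0423). The part of this rise in the results that follow was not tested. Of 4 endothelial markers, 1 to 3 were detected, KDR on no array, with summed signals of 85.0 to 210.4 after siCtrl and 124 to 440 after siDLEU1-2.

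All 10 genes had at least 1 probe that could be tested, meaning that each line had at least 1 array on which it was well above background. This kept 12 of the 15 probes, and all 6 arrays detected 10 of them. With limma, 2 of the 12 probes were called lower after DLEU1 knockdown (IL1A and IL1B) and 0 higher, where 8.5% of all 19956 probes tested were called, 4.52% lower and 3.98% higher. Without adjustment, 5 of the 12 had p below 0.05 in the same fit, against 29.5% of all probes, with IL1A, IL1B, and IL8 lower and IL6 and CSF2 higher. In 3 of the 12 probes (IL1A, IL1B, and IL6) the siRNA groups did not overlap, which held for 11% of all probes tested. Over 2-fold changes in all 3 lines were seen in 4 of the 12, against 4.38% of all probes: IL1A and IL1B fell that far in every line, IL6 was higher in every line, and CCL20 went in opposite directions. The median over the 10 genes of the mean log2 fold change was 0.16, beside 0.0063 over all 15281 gene names tested, but it was -0.24 without HSC-3 and 0.31 without KON, and 3 of the 12 probes were higher and 3 lower in all 3 lines. Because each array holds RNA of a whole culture, fewer expressing cells and less RNA per cell cannot be told apart in any of these values.

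**Figure D1:**
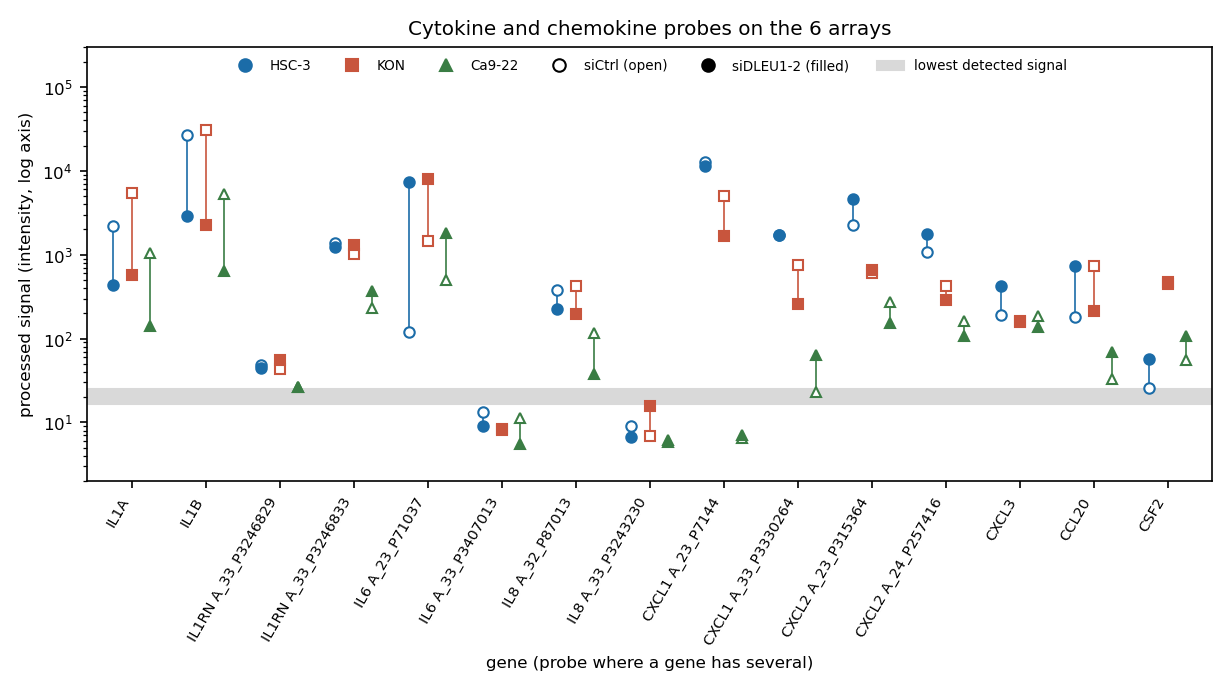
Processed signal (intensity, log axis) of the 15 probes of the 10 genes on the 6 arrays. Open symbols are siCtrl and filled symbols siDLEU1-2, a line joins the 2 arrays of a cell line, and the gray band spans the lowest signal called well above background on each array. Levels of different probes are not comparable. IL1A and IL1B drop in each line, IL6 (A_23_P71037) is higher after siDLEU1-2 in each line, and the CXC chemokines are lowest in Ca9-22 apart from CXCL3 after siCtrl.

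IL1B, which encodes IL-1β, carried the largest decrease among the 10 genes. Its probe (NM_000576, hg19 chr2:113587429-113587488, minus strand) read 26577 after siCtrl and 2906 after siDLEU1-2 for HSC-3, 30698 and 2253 for KON, and 5332 and 632 for Ca9-22. All 3 siCtrl arrays lay above all 3 siDLEU1-2 arrays, even though Ca9-22 started far below the other lines. The decrease was 8.43-fold for HSC-3, 12.97-fold for KON, and 8.15-fold for Ca9-22, and the log2 fold changes averaged -3.27 ± 0.37 (SD, n = 3 lines; limma 95% interval -3.77 to -2.76; adjusted p = 0.0227). The probe is printed on 10 spots per array, 7 to 10 of them usable, and the spots did not overlap between the siRNAs within any line: in HSC-3, for example, they ran from 24707.5 to 27882 after siCtrl and from 2599 to 3084 after siDLEU1-2.

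IL1A, which encodes IL-1α, fell with it. Its probe (NM_000575, hg19 chr2:113532362-113532421, minus strand) read 2188 after siCtrl and 432 after siDLEU1-2 for HSC-3, 5382 and 568 for KON, and 1053 and 141 for Ca9-22. Again the lowest siCtrl array (Ca9-22) was above the highest siDLEU1-2 array (KON). The decreases were 4.67-, 9.02-, and 7.21-fold in HSC-3, KON, and Ca9-22, and the mean log2 fold change was -2.75 ± 0.48 (SD, n = 3 lines; limma 95% interval -3.34 to -2.16; adjusted p = 0.0231). The 8 to 10 usable spots of this probe on an array had SDs of 0.0484 to 0.155 on the log2 scale, small beside these changes. Spots of an array share the same culture, however, so for IL1A and IL1B alike they do not measure the error of a change between cultures. For both genes the direction was the same in all 3 lines, but with 2 lines in the fit the adjusted p was no longer below 0.05, at 0.109 for both without HSC-3, 0.119 for both without KON, and 0.0657 (IL1A) and 0.0610 (IL1B) without Ca9-22. With all probes tested and no filter on dim ones, it was 0.141 for both.

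IL1RN, the receptor antagonist gene, was not called. Its brighter probe (A_33_P3246833) read 1386 and 1245 for HSC-3, 1032 and 1302 for KON, and 234 and 370.5 for Ca9-22 after siCtrl and siDLEU1-2, and its log2 fold change averaged 0.36 ± 0.38 (SD, n = 3 lines; limma 95% interval -0.15 to 0.87; adjusted p = 0.289). Its dimmer probe (A_33_P3246829) read 48.8 and 45.0, 43.2 and 56.0, and 26.5 and 26.5 in the same order, the last of these not well above background, with a mean of 0.17 ± 0.24 (SD, n = 3 lines; interval -0.25 to 0.58; adjusted p = 0.538). Neither interval reaches the decreases of the IL1A and IL1B probes.

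IL6, the pleiotropic cytokine that drives STAT3 signaling and the acute phase response, had the largest positive mean change of the 10 genes. Its probe (A_23_P71037, NM_000600, hg19 chr7:22771207-22771266, plus strand) read 119 after siCtrl and 7458 after siDLEU1-2 for HSC-3, 1463 and 8062 for KON, and 499.5 and 1819 for Ca9-22. The 3 siDLEU1-2 arrays were all above the 3 siCtrl arrays, and HSC-3 went from the lowest IL6 signal of the siCtrl arrays to a signal close to that of KON after siDLEU1-2. The folds, 68.2 for HSC-3, 5.79 for KON, and 3.77 for Ca9-22, came to 3.51 ± 2.25 on the log2 scale (SD, n = 3 lines). The lines spread widely, and the change was not called (limma 95% interval 1.25 to 5.77; adjusted p = 0.0761), but with normexp background correction it was (3.27, adjusted p = 0.0492). A second IL6 probe (A_33_P3407013), designed to a different transcript (ENST00000420258), was not well above background on any array and was not tested.

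IL8, the prototype neutrophil chemokine, was lower in each line without passing the threshold. Its probe (A_32_P87013, NM_000584, hg19 chr4:74609265-74609324, plus strand) read 381 and 228 for HSC-3, 426 and 195 for KON, and 118 and 38.0 for Ca9-22 after siCtrl and siDLEU1-2. The groups overlapped, because the siCtrl level of Ca9-22 was below the siDLEU1-2 levels of the other lines. It was thus 1.54-, 2.08-, and 2.99-fold lower after siDLEU1-2, and the mean log2 fold change was -1.09 ± 0.48 (SD, n = 3 lines; limma 95% interval -1.67 to -0.50; adjusted p = 0.0555). Under 4 of the 12 alternative processings it was called, with adjusted p from 0.0293 to 0.0497. The other IL8 probe (A_33_P3243230) was not well above background on any array.

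**Figure D2:**
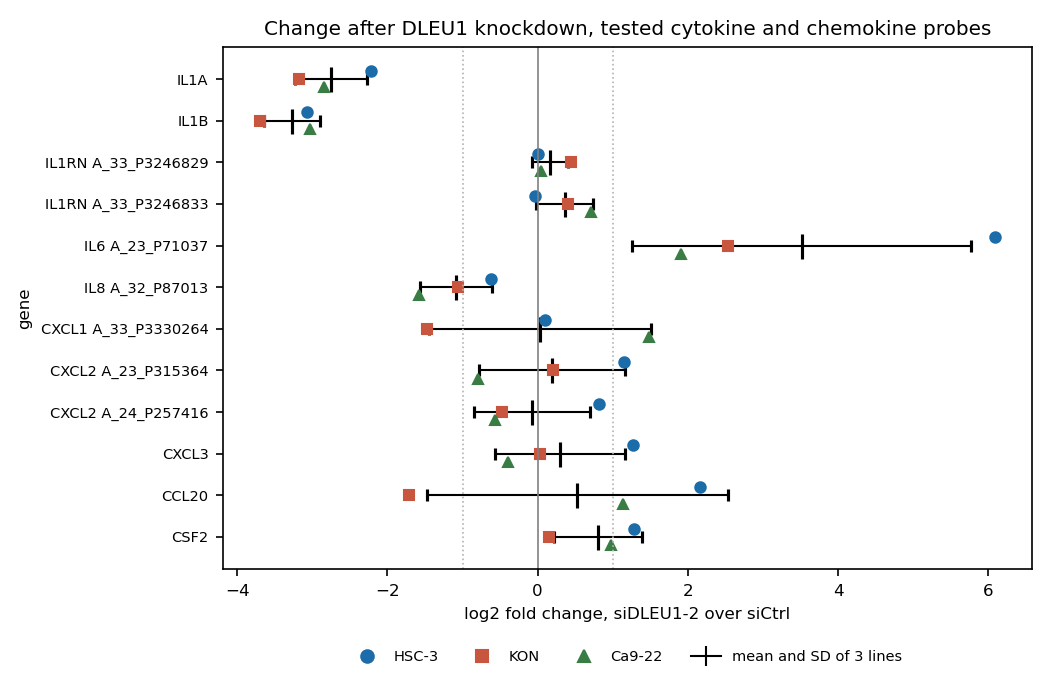
Log2 fold change of siDLEU1-2 over siCtrl for the 12 tested probes of the 10 genes. Symbols are the 3 cell lines, black bars the mean and SD over the lines, and dotted lines mark 2-fold. IL1A and IL1B lie below -2 in each line and IL6 above 1.9 in each line, while CXCL1 and CCL20 spread to both sides of 0.

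The 3 GRO chemokines, which share the receptor CXCR2, showed no change that the lines had in common. CXCL1 was read by 2 probes. The first (A_23_P7144) gave 12738 and 11473 for HSC-3 and 5083 and 1679 for KON after siCtrl and siDLEU1-2, and was not well above background in Ca9-22 (6.46 and 7.04), so it was not tested. The second (A_33_P3330264) gave 1734 and 1705 for HSC-3, 746 and 256 for KON, and 23.3 and 62.9 for Ca9-22. Both probes thus put CXCL1 at nearly the same level in the HSC-3 arrays and lower after siDLEU1-2 in KON, by 2.88-fold and 2.78-fold. In Ca9-22 the siCtrl array was not well above background for the second probe, and CXCL1 was at least 2.79-fold higher after siDLEU1-2. The mean log2 fold change of the second probe was 0.03 ± 1.48 (SD, n = 3 lines; limma 95% interval -1.47 to 1.54; adjusted p = 0.979), and its sign turned under 3 of the 11 alternatives.

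CXCL2 and CXCL3 were higher after siDLEU1-2 in HSC-3. After siCtrl and siDLEU1-2, the first CXCL2 probe (A_23_P315364) read 2254 and 4601 for HSC-3, 601 and 662 for KON, and 274 and 153 for Ca9-22, and its log2 fold change averaged 0.19 ± 0.97 (SD, n = 3 lines; interval -0.83 to 1.21; adjusted p = 0.787). The second (A_24_P257416) read 1077 and 1746, 418 and 285, and 164 and 107.1, with a mean of -0.08 ± 0.77 (SD, n = 3 lines; interval -0.92 to 0.76; adjusted p = 0.902), and its sign turned under 4 of the 13 alternatives. The probes differed in direction in KON, by 0.21 against -0.48 on the log2 scale. The CXCL3 probe (A_24_P183150) read 191 and 423 for HSC-3, 164 and 159 for KON, and 185 and 136 for Ca9-22, with a mean of 0.30 ± 0.86 (SD, n = 3 lines; interval -0.62 to 1.22; adjusted p = 0.617). For CXCL3 and for the first CXCL2 probe the mean was negative once HSC-3 was left out, at -0.18 and -0.29, so that their positive means rest on this line.

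CCL20, the CCR6 ligand, changed by over 2-fold in each line but not in the same direction. Its probe (A_23_P17065, NM_004591) read 179.6 and 738 for HSC-3, 736 and 213 for KON, and 32.7 and 69.7 for Ca9-22 after siCtrl and siDLEU1-2. After siDLEU1-2 it was 4.46-fold higher in HSC-3, 2.21-fold higher in Ca9-22, and 3.28-fold lower in KON, a pattern of opposite changes over 2-fold that 0.215% of all probes had. The mean log2 fold change was 0.53 ± 2.01 (SD, n = 3 lines; limma 95% interval -1.49 to 2.55; adjusted p = 0.692), and it was -0.29 without HSC-3. With 1 array per line and siRNA, the difference between the lines could not be tested.

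CSF2 was higher in each line by different amounts. Its probe (A_23_P133408, NM_000758, hg19 chr5:131411452-131411511, plus strand) read 25.9 and 57.9 for HSC-3, 444 and 470.2 for KON, and 56.1 and 106.4 for Ca9-22 after siCtrl and siDLEU1-2. The groups overlapped, since both KON arrays were above all the others. The mean log2 fold change was 0.80 ± 0.58 (SD, n = 3 lines; limma 95% interval 0.13 to 1.47; adjusted p = 0.122).

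Line by line, the 12 tested probes moved in different proportions. In HSC-3, 7 of 12 changed by over 2-fold, 5 of them higher (IL6, CXCL2, CXCL3, CCL20, and CSF2) and 2 lower (IL1A and IL1B), where 14.2% of all probes changed by over 2-fold in either direction. In KON it was 6 of 12, with 1 higher (IL6) and 5 lower (IL1A, IL1B, IL8, CXCL1, and CCL20), against 14.6% of all probes. In Ca9-22 it was also 6 of 12, with 3 higher (IL6, CXCL1, and CCL20) and 3 lower (IL1A, IL1B, and IL8), against 13% of all probes. With a single array for each line and siRNA, these counts have no test.

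The lines also differed in how much of these RNAs they held, whatever the siRNA. By limma's F test over the cell lines, 9 of the 12 probes differed between lines, beside 53.8% of all probes tested. The exceptions were IL6 (adjusted p = 0.304), CXCL3 (0.123), and CCL20 (0.0625). No array was repeated for the same line and siRNA. The error in this test, and in the tests between pairs of lines below, rested on how the siRNA change varied between lines. Variation between cultures of a line under the same siRNA was not measured, so these p-values do not stand for repeated cultures. Ca9-22 had the lowest mean level for 11 of the 12 probes, against 37.2% of all probes, and HSC-3 the highest for 9, against 39.4%. Among the tested probes, the order of the lines changed with the siRNA for IL6, CXCL3, CCL20, and the dimmer IL1RN probe. For IL6, HSC-3 was lowest after siCtrl and highest after siDLEU1-2, and for CXCL3, KON was lowest after siCtrl. In pairs of lines, 8 probes were called between HSC-3 and Ca9-22, each higher in HSC-3, beside 36.6% of all probes called and 21.3% called higher in HSC-3. Between KON and Ca9-22, 7 were called, each higher in KON, beside 33.2% of all probes called and 18.8% called higher in KON. Between HSC-3 and KON, 3 were called, beside 36.2% of all probes: both CXCL2 probes were higher in HSC-3 (19.2% of all probes) and CSF2 was higher in KON.

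**Figure D3:**
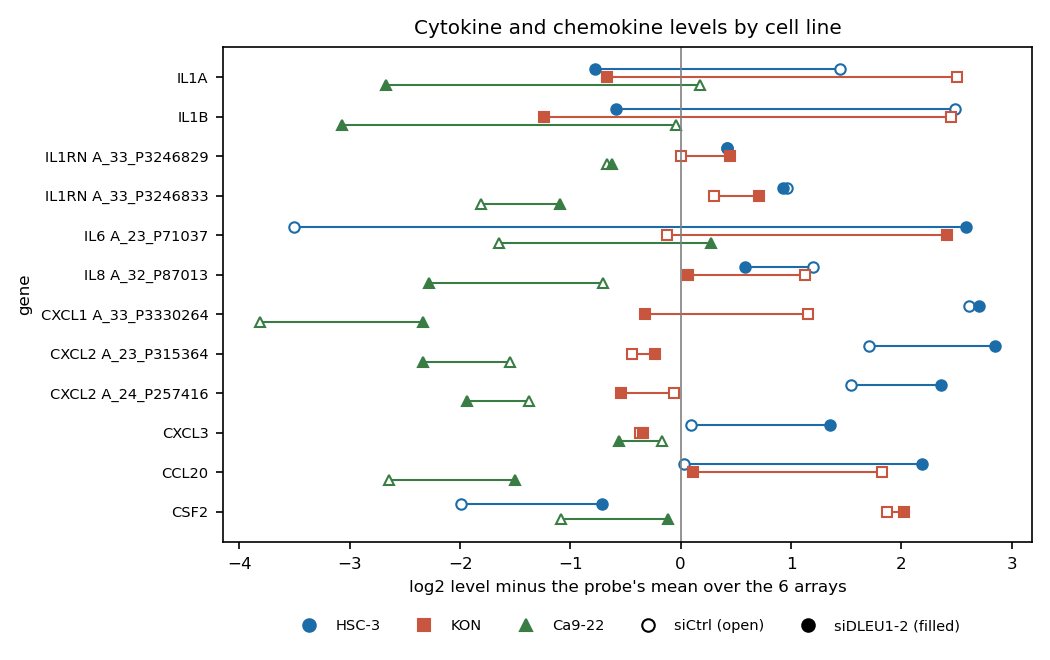
Log2 level of each tested probe minus its mean over the 6 arrays. Open symbols are siCtrl and filled symbols siDLEU1-2, and a line joins the 2 arrays of a cell line. Ca9-22 (triangles) lies to the left for most probes, HSC-3 (circles) to the right for CXCL1 and CXCL2, and KON (squares) to the right for CSF2.

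Of the 10 genes, CXCL1 spanned the widest range over the lines. For its probe A_23_P7144, which was bright in HSC-3 and KON and not well above background in Ca9-22, the level was at least 596-fold higher in HSC-3 than in Ca9-22 and at least 120.1-fold higher in KON than in Ca9-22. For the probe A_33_P3330264, which 1 of the 2 Ca9-22 arrays measured (siDLEU1-2), the order was HSC-3, KON, Ca9-22, with at least 53.1-fold between HSC-3 and Ca9-22 (adjusted p = 0.00857) and at least 11.2-fold between KON and Ca9-22 (adjusted p = 0.0241), the p-values taking the other Ca9-22 array as read. HSC-3 was 4.72-fold above KON for this probe without being called (adjusted p = 0.0648), although both HSC-3 arrays (1734 and 1705) read above both KON arrays (746 and 256). That p-value rests on the spread over all 3 lines and does not show that HSC-3 and KON were alike. CXCL2 followed the same order, with 18.6-fold between HSC-3 and Ca9-22 (adjusted p = 0.00768), 6.13-fold between HSC-3 and KON (adjusted p = 0.0185), and 3.04-fold between KON and Ca9-22 (adjusted p = 0.0606) for the probe A_23_P315364.

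The IL-1 genes and IL8 split the lines differently, with HSC-3 and KON together above Ca9-22. IL1B was 5.67-fold higher in HSC-3 and 4.47-fold higher in KON than in Ca9-22 (adjusted p = 0.00636 and 0.00859), while HSC-3 and KON were 1.27-fold apart (adjusted p = 0.295). IL1A was 2.99-fold higher in HSC-3 and 4.48-fold higher in KON than in Ca9-22 (adjusted p = 0.0164 and 0.0103), and the brighter IL1RN probe 5.28-fold and 3.88-fold higher (adjusted p = 0.00644 and 0.00962). For IL8 the folds over Ca9-22 were 5.22 for HSC-3 and 4.25 for KON (adjusted p = 0.00784 and 0.0108). CSF2 had an order of its own, with KON 9.84-fold above HSC-3 (adjusted p = 0.00690) and 5.84-fold above Ca9-22 (adjusted p = 0.00981), and HSC-3 1.68-fold below Ca9-22 (adjusted p = 0.121).

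The genes whose pattern over the 6 arrays was most like that of IL1B were looked for among the 18094 probes well above background on every array, by the Euclidean distance between centered log2 levels. IL1A was at 1.29 and IL8 at 2.75, while the CXCL2 probes were at 4.41 and 4.97, the brighter IL1RN probe at 4.48, CXCL3 at 4.96, CCL20 at 5.02, CSF2 at 6.39, and IL6 at 8.93. The other tested probes, the dimmer one of IL1RN (4.53) and A_33_P3330264 of CXCL1 (5.31), were detected on 5 arrays and so lay outside this search. Outside the 10 genes, the nearest were ASB2 (1.63), which encodes a substrate receptor of a ubiquitin ligase, SMYD2 (1.73), a lysine methyltransferase, TMEM229B (1.79), CD44 (1.91), the hyaluronan receptor, and CMPK1 (1.92), a nucleotide kinase. These likenesses are descriptions over 6 arrays that share their lines and siRNAs.

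The machinery that matures and releases IL-1β and IL-18 was followed with a list of 15 genes, of which 12 could be tested. Of these, 11 were measured in both siRNA groups, and limma called 3 of them lower (PYCARD, AIM2, and GSDMD) and 0 higher, with a median of the mean log2 fold changes of -0.23. The fit also called NLRP3, which no siDLEU1-2 array read well above background, for a total of 4 lower. Of all gene names tested, 5.11% had a probe called lower and 4.58% one called higher. At an unadjusted p below 0.05, 4 of the 11 were lower and 0 higher (5 of 12 with NLRP3), where 16.5% of all gene names had a probe lower and 16.1% one higher. PYCARD, the adaptor that links inflammasome sensors to caspase-1, read 13332 and 5797 for HSC-3, 4577 and 1617 for KON, and 2701 and 942 for Ca9-22 after siCtrl and siDLEU1-2, lower in each line (mean log2 fold change -1.33 ± 0.21, SD, n = 3 lines; adjusted p = 0.0257). GSDMD, the pore-forming gasdermin, read 966 and 431, 758 and 185, and 991 and 326, with no overlap between the groups (-1.52 ± 0.46, SD, n = 3 lines; adjusted p = 0.0315).

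AIM2, the sensor of cytosolic DNA, fell by 2.37- to 3.15-fold from levels that differed widely between the lines, with 2854 and 1111 for HSC-3, 117 and 45.8 for KON, and 682 and 209 for Ca9-22 (-1.39 ± 0.23, SD, n = 3 lines; adjusted p = 0.0252). The NLRP3 sensor probe was dim: it read 37.1, 70.0, and 47.0 after siCtrl and no siDLEU1-2 array read it well above background, which leaves only a bound. NLRP3 was at least 2.06-fold lower after siDLEU1-2 for HSC-3, 3.12-fold for KON, and 1.82-fold for Ca9-22, and at least 2.27-fold as the mean over the lines. Its adjusted p of 0.0330 from limma was computed with the siDLEU1-2 values as read, which are not measured levels. CASP1, the protease itself, was lower in each line (4034 and 2095, 3438 and 1313, and 3196 and 539) but was not called (-1.55 ± 0.87, SD, n = 3 lines; adjusted p = 0.0662). IL18, the other precursor that caspase-1 cleaves, had a mean of -0.36 ± 0.06 (SD, n = 3 lines; adjusted p = 0.155), and CASP4, CASP5, CAPN1, and CAPN2 were not called.

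**Figure D4:**
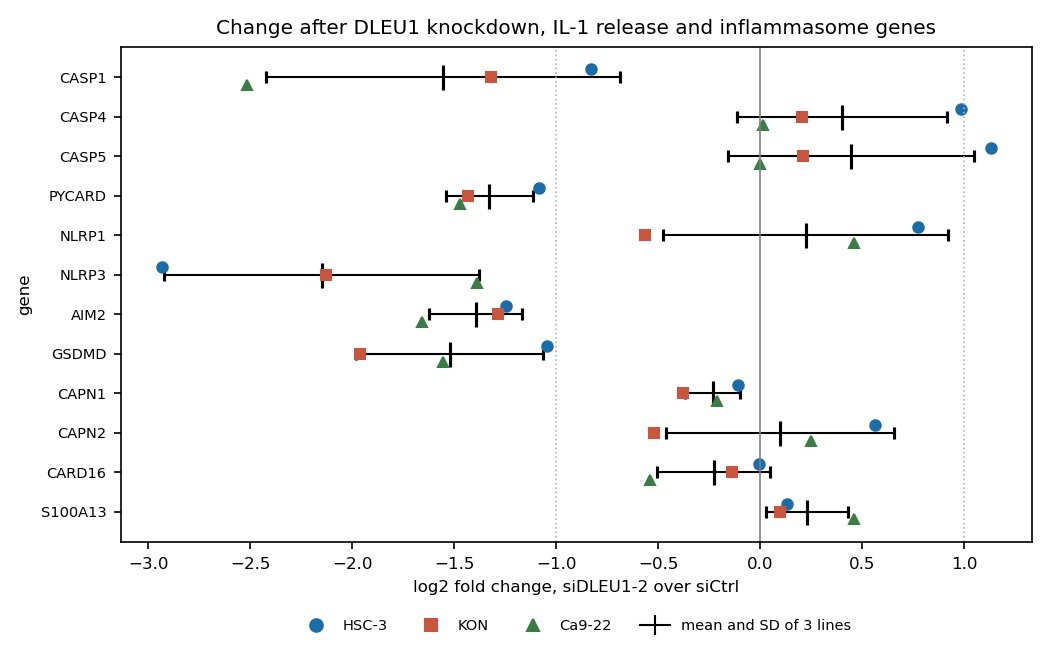
Log2 fold change of siDLEU1-2 over siCtrl for the 12 tested genes of IL-1 maturation and release. Symbols are the 3 cell lines, black bars the mean and SD over the lines, and dotted lines mark 2-fold. PYCARD, AIM2, and GSDMD lie below -1 in all 3 lines, and NLRP3 values after siDLEU1-2 are below the detection limit, so its points are not measured folds.

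Of 17 receptor genes for these ligands and their relatives, 7 could be tested, and 2 were called higher and 0 lower by limma, beside 4.58% and 5.11% of all gene names (3 and 2 at an unadjusted p below 0.05, beside 16.1% and 16.5%), with a median of 0.23. The called genes encode receptors of the IL-6 family, whose other members on the list, OSMR and IL6R, were not called. IL6ST, the signal-transducing subunit gp130, had 4 of its 7 tested probes called, and the one with the lowest adjusted p among those detected on all arrays (A_33_P3287338) read 191 and 425 for HSC-3, 197 and 431 for KON, and 149.7 and 259 for Ca9-22 (mean log2 fold change 1.11 ± 0.23, SD, n = 3 lines; adjusted p = 0.0315). LIFR, which pairs with gp130, read 33.7 and 198, 42.5 and 144, and 71.9 and 185 (1.97 ± 0.64, SD, n = 3 lines; adjusted p = 0.0307). IL6R, the ligand-binding subunit, was lower in HSC-3 and Ca9-22 and near its siCtrl level in KON by the probe A_33_P3288844 (log2 fold changes -2.20, -2.23, and -0.04; adjusted p = 0.130 for the mean). OSMR, the oncostatin M receptor subunit, averaged -0.59 by the probe A_23_P156289 and 0.37 by A_21_P0000073 (adjusted p = 0.122 and 0.574). IL1RAP, the shared IL-1 receptor chain, was not called by either of its tested probes, and a further probe was detected on no array. IL1R1, the ligand-binding IL-1 receptor, could not be tested. Its probe A_33_P3396389 read 77.6 and 47.2 for HSC-3 and 69.7 and 38.2 for KON, and was not well above background in Ca9-22. Its other probe was detected on no array.

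Of the other secreted factors, limma called 2, both higher, where 4.58% of all gene names had a probe called higher. Among 26 further chemokine genes 8 could be tested and 1 was called, CCL26, an eotaxin, which was higher in each line (278 and 1521 for HSC-3, 1461 and 3547 for KON, and 450.5 and 1438 for Ca9-22; mean log2 fold change 1.88 ± 0.63, SD, n = 3 lines; adjusted p = 0.0315). The median of this group was 0.34. Among 30 further cytokine genes 13 could be tested and 1 was called, LTB, which encodes lymphotoxin β (239 and 813, 105 and 351, and 30.7 and 138.5). The Ca9-22 siCtrl array was not well above background for LTB, which leaves a bound of at least 4.67-fold there, and the mean of 1.97 ± 0.22 (SD, n = 3 lines; adjusted p = 0.0227 from limma) takes that array as read. The median of the 13 was 0.62.

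Regulators of cytokine transcription and mRNA decay gave 0 calls by limma in either direction among 24 tested genes, with a median of 0.19, and at an unadjusted p below 0.05 there were 7 higher and 3 lower, where 16.1% and 16.5% of all gene names had such a probe. The 5 NF-κB subunits went both ways without a call. RELA was lower in each line by both probes (mean log2 fold change -1.03 ± 0.43, SD, n = 3 lines, adjusted p = 0.0539 for A_33_P3209433) and so was NFKB1 (-0.89 ± 0.41, SD, n = 3 lines; adjusted p = 0.0661). REL was higher in each line (0.68 ± 0.43, SD, n = 3 lines; adjusted p = 0.113), NFKB2 was higher mainly in HSC-3 (0.61 ± 0.99, SD, n = 3 lines; adjusted p = 0.367), and RELB differed in sign between the lines (-0.40 ± 0.72, SD, n = 3 lines; adjusted p = 0.434). Genes that are typically induced along with cytokines also gave 0 calls by limma among 12 tested, with a median of 0.37, and 3 higher and 1 lower at an unadjusted p below 0.05, against the same background shares. BIRC3, an inhibitor of apoptosis that NF-κB induces, read 175 and 4344 for HSC-3, 263 and 1933 for KON, and 299.7 and 897 for Ca9-22, all higher after siDLEU1-2 and, as for IL6, most of all in HSC-3 (3.11 ± 1.57, SD, n = 3 lines; adjusted p = 0.0510). The uncalled genes of these lists were chosen for mention after their values had been seen.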

How the data were processed

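Gene expression was measured on 6 one-color Agilent arrays on 1 slide, 1 per cell line and siRNA. The authors deposited Feature Extraction 10.7.3.1 scanner output, and the processed intensity of each spot (background subtracted, not normalized between arrays) was used. The series table holds the same intensity, rounded (largest difference 0.497%). The paper names GeneSpring GX for the analysis, and its normalization is not given in the sources used here. Probe coordinates are on hg19, as in the file headers.

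The log2 intensity was centered on each array's 75th percentile (200.5 to 257 in processed signal), control and outlier spots were dropped, and spots of a probe were averaged. Of 50599 probes, 55 lacked a usable spot on some array, and 19956 were kept, each of which rose well above background (with at least 50% of its spots) on 1 or both arrays of every line. No spot was saturated. limma 3.58.1 in R 4.3.3 was fitted to the 6 arrays with siRNA and cell line as terms, p-values were adjusted over all kept probes by the Benjamini-Hochberg method, and a probe was called at an adjusted p below 0.05. Lines pair the arrays, and deviations from the siRNA means correlated within pairs at 0.83, 0.81, and 0.82. Nothing in the labels gives more than 1 culture per line and siRNA, and the number of arrays limits the precision. No permutation test is given, since sign flips over 3 lines cannot go below p = 0.25 (exact). Bounds for dim probes use, on each dim array, the lowest signal detected there or the value as read, whichever is higher. For TP63, LTB, and the tested CXCL1 probe in Ca9-22 the value as read was higher, so these bounds equal the folds as read. The fit was tested on simulated data.

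The cytokine genes and all gene lists were chosen with earlier results of these data known. Named are every probe of the 10 genes, DLEU1, the called genes of each list (at most 4), the 5 genes nearest to IL1B, and genes said to be chosen later. Alternatives were other centerings, quantile normalization, normexp (offset 50), the series table, other filters on dim probes, a fit without the block, the omission of each line, a 3-fold threshold, averaging of a gene's probes, and the methods' t-test.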

Additional observations from a re-analysis of the deposited data

Results flagged for a closer look

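CCL20 went over 2-fold in opposite directions in the 3 lines, higher after siDLEU1-2 in HSC-3 (2.16 on the log2 scale) and Ca9-22 (1.14) and lower in KON (-1.71), a range of 3.87 between the lines. With 1 array per line and siRNA, this difference between the lines was not tested. All 6 arrays read this probe well above background, though the siCtrl array of Ca9-22 (32.7) lay close to its detection limit of 23.2.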

How the results depend on the processing

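Without the replicate block, the fit that ignores the pairing by cell line called 0 of the 12 cytokine probes and 0 of all probes (1357 at an unadjusted p below 0.05), and DLEU1 was at -3.72 with adjusted p = 0.183, IL1A at 0.457, and IL1B at 0.448. With no filter on dim probes (50544 tested), 0 cytokine probes and 0 of all probes were called (6816 unadjusted), and DLEU1, at -3.72, had adjusted p = 0.141. With a line left out, calls fell from 2 to 0 of the cytokine probes and from 1697 to 0 of all probes (4507 to 4704 unadjusted), DLEU1 ranged from -3.87 to -3.54 (adjusted p from 0.0610 to 0.119), probes over 2-fold in the remaining lines numbered 1470 to 1626 against 874 in all 3, cytokine probes called between lines 5 to 9 against 9 (5 without Ca9-22), and the median over the 10 genes ran from -0.24 to 0.31. With normexp, 4 cytokine probes were called (IL1A, IL1B, IL6, and IL8), and 399 probes were over 2-fold. At 3-fold in place of 2-fold there were 258, with no filter on dim probes 1220, and among probes detected on all 6 arrays 585. The methods' t-test gave 3 cytokine probes at its threshold and 0 after Benjamini-Hochberg, and 1373 and 0 of all probes.

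Centering on the median shifted all log2 fold changes by -0.07 and put 37.4% of all calls on the higher side, against 46.8%. The signs of 5 uncalled probes turned. CXCL1 (A_33_P3330264) was at -0.039 with median centering, -0.22 with normexp, and from -0.69 to 0.79 with a line left out (negative without Ca9-22). CXCL2 (A_24_P257416) was at 0.000345 with normexp, 0.056 as the mean of the gene's probes, and from -0.52 to 0.17 with a line left out (positive without KON or Ca9-22). With a line left out, CXCL2 (A_23_P315364) ran from -0.29 to 0.68, CXCL3 from -0.18 to 0.64, and CCL20 from -0.29 to 1.65, each negative without HSC-3. IL1A, IL1B, and IL6 kept their direction under every alternative run, from -3.01 to -2.49, -3.39 to -3.05, and 2.22 to 4.31. The cause of the lost calls was not tested. Signals not well above background limit NLRP3 after siDLEU1-2 and, in Ca9-22, CXCL1, LTB, TP63, and the dimmer IL1RN probe, among others.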
